A study of Homo sapiens with 17 samples.

Results

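RNA polymerase III (Pol III) makes short, abundant noncoding RNAs, and 5 of them had enough reads to be followed in HEK-293T cells, a line of human embryonic kidney cells, after exposure to emetine, an alkaloid that blocks the movement of ribosomes along mRNA. These 5 genes, RMRP, RPPH1, RN7SK, RN7SL1 and RN7SL2, were chosen by name from the 19222 genes listed in the 1 h experiment, and they were selected with earlier results of the same libraries known, so that their levels and changes are given as a description. In the 1 h experiment, 3 libraries came from cells given 500 µM of the nucleoside s4U and 1.8 µM emetine, and 3 from cells given s4U and left untreated. A further untreated and a further emetine-treated library came from cells without s4U. In the 2 h experiment, cells received 250 µM s4U and no emetine, 1.8 µM emetine or 240 µM emetine, with 3 libraries for each. All samples came from a single cell line and the labels do not say whether replicates were separate cultures, so the spread between libraries may be technical. In TimeLapse-seq (TL-seq), s4U that enters new RNA is chemically recoded, and reads of new RNA can carry T-to-C conversions. The fitted rate in new reads was 8.488% to 9.53% of T positions per library, so a new read may carry none.

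The 1 h libraries were made with a kit that selects polyadenylated RNA, and the 2 h libraries with a total RNA kit. None of these 5 RNAs normally carries a poly(A) tail, so the 1 h reads are those that passed a selection against them. Reads given to a gene numbered from 22246279 to 40018063 per library at 1 h, and the 5 Pol III RNAs together received between 0.00345% and 0.0107% of them. The members held between 75 and 1236 reads each in any library, and all 5 passed the filter of more than 100 reads in total. No read was marked as ambiguous between a member and another gene. That mark cannot show whether a read fits the sequences of near-identical genes equally well. No molecular identifiers are described, so reads may be copies of the same molecule and intervals cover counting error only. The mean number of T positions per gene read, which grows with fragment length, ranged from 32.0 to 43.8 between libraries.

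Pol III recognizes 2 kinds of promoter among these genes. RMRP, RPPH1 and RN7SK have their control elements upstream of the start, including a TATA element, whereas the 7SL genes also use elements inside the transcribed sequence. Their products work as the RNA parts of ribonucleoproteins: RMRP is the RNA of RNase MRP, which cuts precursor ribosomal RNA, RPPH1 is the catalytic RNA of RNase P, which trims the leader of precursor tRNA, 7SK holds the elongation factor P-TEFb in an inactive complex, and 7SL is the backbone of the signal recognition particle that brings ribosomes making secreted proteins to the endoplasmic reticulum. Pol III ends transcription at a run of T in the coding strand, and the RNAs end in a short run of U.

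The genes were located in GENCODE 44 on hg38. RMRP (ENSG00000277027.1) lies at chr9:35657754-35658017 on the minus strand and is 264 bases long. RPPH1 (ENSG00000277209.1) covers 333 bases at chr14:20343075-20343407 on the minus strand and overlaps an exon of the noncoding gene ENSG00000259001 on the same strand. RN7SK (ENSG00000283293.1) covers 328 bases at chr6:52995621-52995948 on the plus strand and overlaps an exon of the gene entry named 7SK on the same strand. RN7SL1 (ENSG00000276168.1) covers 299 bases at chr14:49586580-49586878 on the plus strand, inside an intron of RPS29, which is read from the opposite strand. RN7SL2 (ENSG00000274012.1) covers 300 bases at chr14:49862550-49862849 on the minus strand and overlaps an exon of the noncoding gene ENSG00000282885 on that strand. None of these noncoding RNA genes has an intron, and each is 1 exon.

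Because the libraries were poly(A) selected, the ends of the genes are shown. Each line below gives the last 10 bases of the gene and the 20 bases that follow it in the genome, with the first run of 4 or more T, where Pol III can stop, in capitals.
RMRP: tcagcgcggctgTTTTTTgttcccgagacc
RPPH1: ctcctccgcccaTTTTTggaaaaaaaaaaa
RN7SK: ctgcctttcTTTTgacccattacccatcta
RN7SL1: ccccgtctcTTTTgaacaataaatacgtta
RN7SL2: cccgtctcTTTTgcccccctccctcattaa
The T run began within 3 bases of the annotated end in all 5 genes, and no gene held a run of more than 4 A inside its RNA. The run of A that follows the T run of RPPH1 lies outside the annotated gene.

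RN7SL1 and RN7SL2 are nearly the same in sequence, which bears on how reads can be told apart. Over 299 compared bases the 2 genes differed at 4, an identity of 98.7%. A stretch of 205 bases between the last 2 of these differences is identical, so a read from that stretch could not be given to either gene from its sequence, and how the authors' counting placed such reads is not given in the sources used here. Values of RN7SL1 and RN7SL2 are for that reason uncertain one by one and are also given as a sum.

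RMRP is shown with each T in capitals, since those are the positions where a conversion can be read (chr9:35657754-35658017, minus strand).
RMRP: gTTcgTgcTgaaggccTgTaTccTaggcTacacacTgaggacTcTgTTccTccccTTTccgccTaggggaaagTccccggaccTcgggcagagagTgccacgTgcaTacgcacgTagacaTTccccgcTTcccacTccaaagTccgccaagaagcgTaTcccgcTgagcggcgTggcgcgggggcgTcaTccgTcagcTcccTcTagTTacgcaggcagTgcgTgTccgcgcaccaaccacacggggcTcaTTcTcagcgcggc
It holds 50 T positions, against 56 in RPPH1, 72 in RN7SK and 55 in each of the 7SL genes. The most T positions in any read were 48, 54, 62, 54 and 52 in RMRP, RPPH1, RN7SK, RN7SL1 and RN7SL2, so no read had more T positions than the annotated RNA.

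The 100 bases upstream of each start are shown because the 5 genes fall into the 2 promoter kinds described above. In the first 3 lines, capitals mark the letters TATAA on either strand, and in the last 2 they mark TGACGT.
RMRP: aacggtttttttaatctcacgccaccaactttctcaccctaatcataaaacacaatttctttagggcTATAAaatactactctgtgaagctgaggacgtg
RPPH1: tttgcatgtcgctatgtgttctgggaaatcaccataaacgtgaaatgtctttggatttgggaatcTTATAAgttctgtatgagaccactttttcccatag
RN7SK: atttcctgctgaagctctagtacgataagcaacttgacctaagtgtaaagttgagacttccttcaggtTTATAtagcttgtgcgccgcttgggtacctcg
RN7SL1: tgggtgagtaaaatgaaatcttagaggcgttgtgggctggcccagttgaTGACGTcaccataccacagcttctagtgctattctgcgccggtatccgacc
RN7SL2: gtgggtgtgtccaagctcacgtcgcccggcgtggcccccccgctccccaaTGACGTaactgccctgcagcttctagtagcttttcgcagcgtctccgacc
These windows are chr9:35658018-35658117, chr14:20343408-20343507, chr6:52995521-52995620, chr14:49586480-49586579 and chr14:49862850-49862949. TATAA was found 33 bases before the start of RMRP and 34 before that of RPPH1 on the gene's own strand, and 32 bases before that of RN7SK only as its reverse complement. It was absent from the windows of RN7SL1 and RN7SL2, where TGACGT lay 51 and 50 bases before the start. Of 35116 RefSeq promoter windows of the same length, 9% held TATAA and 4.25% held TGACGT on either strand. A match describes letters only.

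The first question was whether 1 h of emetine went with a different level of these RNAs. RMRP, RPPH1, RN7SK and RN7SL1 had lower levels in each of the 3 emetine libraries with s4U than in any untreated library with s4U, with mean ratios between 1.73 and 2.23, whereas RN7SL2 overlapped between the groups. None of the 5 passed the test at an adjusted p of 0.05 in the edgeR fit over all genes, and 4 passed in DESeq2. Levels are in CPM, read counts divided by the library total of gene reads after TMM scaling. In bulk libraries, fewer cells with an RNA and less of that RNA per cell cannot be told apart.

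RMRP stood at 9.32, 5.44 and 13.5 CPM in the untreated libraries and at 3.28, 4.94 and 4.47 CPM in the emetine libraries. The lowest untreated library lay just above the highest emetine library, and the groups did not overlap. The means were 9.43 ± 4.05 CPM (SD, n = 3) and 4.23 ± 0.855 CPM (SD, n = 3). Without s4U, the untreated library had 11.4 CPM and the emetine library 5.31 CPM, a ratio of 2.14 beside the 2.23 of the means with s4U. In the fit over all genes the log2 fold change was −1.14 with a standard error of 0.31 (edgeR, adjusted p = 0.0986).

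RPPH1, the RNA of the related enzyme RNase P, had 7.78, 5.44 and 7.03 CPM in untreated cells and 3.62, 5.27 and 2.82 CPM in emetine-treated cells. Untreated replicate 2 and emetine replicate 2 lay close to each other, and the groups were otherwise well apart. The means were 6.75 ± 1.19 and 3.90 ± 1.25 CPM (SD, n = 3 each), and the pair without s4U stood at 8.74 and 4.25 CPM. The log2 fold change of −0.77 (standard error 0.25) did not pass the test (edgeR, adjusted p = 0.144).

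RN7SK had 11.3, 6.50 and 11.2 CPM in untreated cells and 2.43, 5.79 and 5.33 CPM in emetine-treated cells. The lowest untreated value came from replicate 2, as for RMRP and RPPH1, and the lowest of all from emetine replicate 1, as for RMRP. The means were 9.67 ± 2.74 and 4.52 ± 1.83 CPM (SD, n = 3 each), and the libraries without s4U had 9.41 and 4.59 CPM. The log2 fold change was −1.09 with a standard error of 0.33 (edgeR, adjusted p = 0.128).

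RN7SL1 had 12.4, 14.1 and 22.6 CPM in untreated cells and 5.28, 8.29 and 10.9 CPM in emetine-treated cells. The groups with s4U did not overlap, but the untreated library without s4U, at 9.84 CPM, lay below emetine replicate 3 and beside the emetine library without s4U, at 9.69 CPM. The means with s4U were 16.4 ± 5.48 and 8.16 ± 2.83 CPM (SD, n = 3 each). The ratio of untreated to emetine-treated was therefore 2.01 with s4U and 1.02 in the pair without s4U, and the difference between these ratios was not tested. The log2 fold change with s4U was −1.01 with a standard error of 0.29 (edgeR, adjusted p = 0.118).

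RN7SL2 had the most reads of the 5 genes and the widest spread. It stood at 18, 21.3 and 58.3 CPM in untreated cells and at 19.6, 10.2 and 45.7 CPM in emetine-treated cells. Replicate 3 was high in both groups, and the groups overlapped. The means were 32.5 ± 22.4 and 25.2 ± 18.4 CPM (SD, n = 3 each), and the log2 fold change of −0.37 had a standard error of 0.56 (edgeR, adjusted p = 0.701). Counted as 1 gene, RN7SL1 and RN7SL2 gave a log2 fold change of −0.55 with a standard error of 0.46 (edgeR, adjusted p = 0.468).

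**Figure D1:**
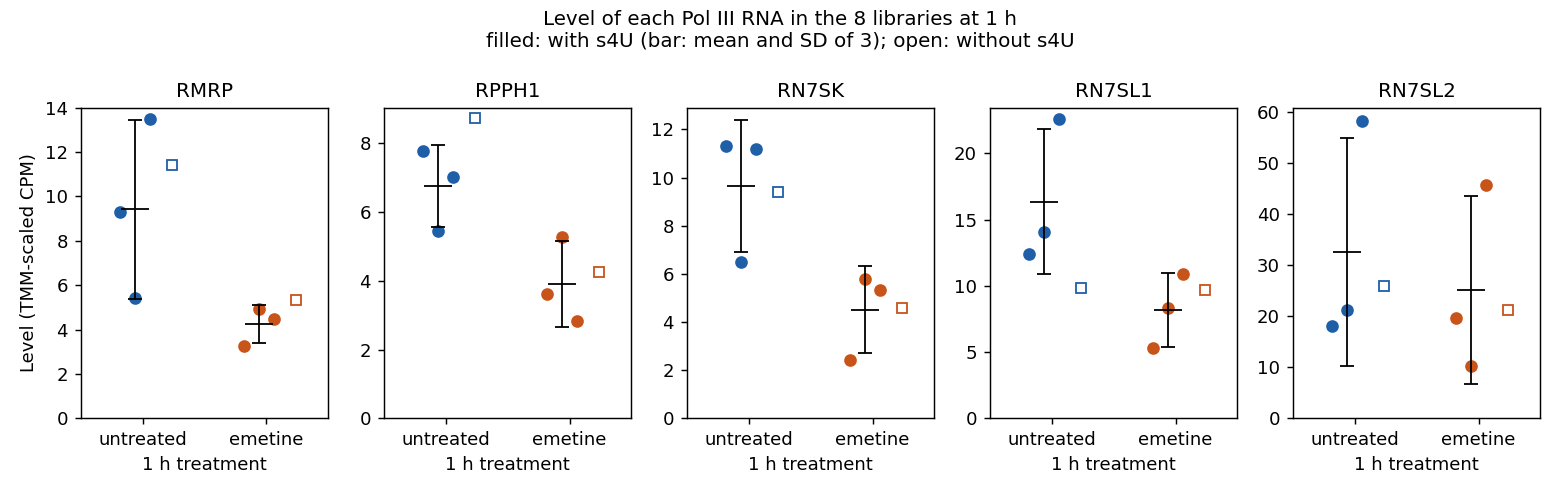
Level of RMRP, RPPH1, RN7SK, RN7SL1 and RN7SL2 in TMM-scaled CPM (vertical axis, linear from 0) in untreated and emetine-treated cells after 1 h; filled circles are the 3 libraries with s4U of each group, in replicate order from the left, black bars their mean and SD, and open squares the single library without s4U. The emetine circles lie below all untreated circles in the first 4 panels and overlap with them for RN7SL2.

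The counts of members can be set beside those of all genes tested. At an adjusted p of 0.05, 0 of 5 members were lower in edgeR, where 6 of 13776 genes (0.0436%) were. At an unadjusted p under 0.05, 4 of 5 were lower (RMRP, RPPH1, RN7SK and RN7SL1), beside 6.95% of all genes. The same 4 of 5 had all 3 emetine libraries below all 3 untreated libraries, beside 15.2% of all genes, and 4 of 5 did so without emetine replicate 3, beside 20.8%. With the libraries without s4U added, so that 4 libraries stood against 4, RMRP, RPPH1 and RN7SK still did not overlap, beside 8.33% of all genes. The median log2 fold change of the 5 members was −1.01, and that of all tested genes was 0.03. Since the members share their libraries, they are not independent of each other, and no p was computed for the group.

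Whether a member passed the threshold rested on the tool, the libraries, the filter and the model. RMRP also passed without a count filter (edgeR, adjusted p = 0.0441). With the replicate number as a block, RN7SL1 passed (edgeR, adjusted p = 0.0487), beside 3 lowered genes of 13776. DESeq2 called 4 of 5 lower, RMRP with an adjusted p of 0.00465, RN7SL1 with 0.00852, RN7SK with 0.0124 and RPPH1 with 0.0344, beside 1.13% of all genes. An edgeR fit over all 8 libraries with a term for s4U called RMRP (adjusted p = 0.0322) and RPPH1 (adjusted p = 0.0442), beside 0.213% of all genes. Without emetine replicate 3, edgeR called RMRP (adjusted p = 0.0176), RN7SK (0.0156) and RN7SL1 (0.0026), beside 3.87% of all genes. Over all alternatives the adjusted p of RMRP ranged from 0.00465 to 0.431, that of RPPH1 from 0.0344 to 0.746, that of RN7SK from 0.0124 to 0.407 and that of RN7SL1 from 0.0026 to 0.522.

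The log2 fold changes of RMRP, RPPH1, RN7SK and RN7SL1 were negative under every alternative that was run, and that of RN7SL2 was positive under 3 of them. Scaling by the spike-in reads moved the median of all tested genes to 0.71. On this scale the log2 fold changes were −0.46 for RMRP, −0.17 for RPPH1, −0.49 for RN7SK, −0.34 for RN7SL1 and 0.51 for RN7SL2, and none passed the test (edgeR, adjusted p from 0.378 to 0.746). Relative to that median, they were −1.17 for RMRP, −0.88 for RPPH1, −1.2 for RN7SK, −1.05 for RN7SL1 and −0.20 for RN7SL2.

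**Figure D2:**
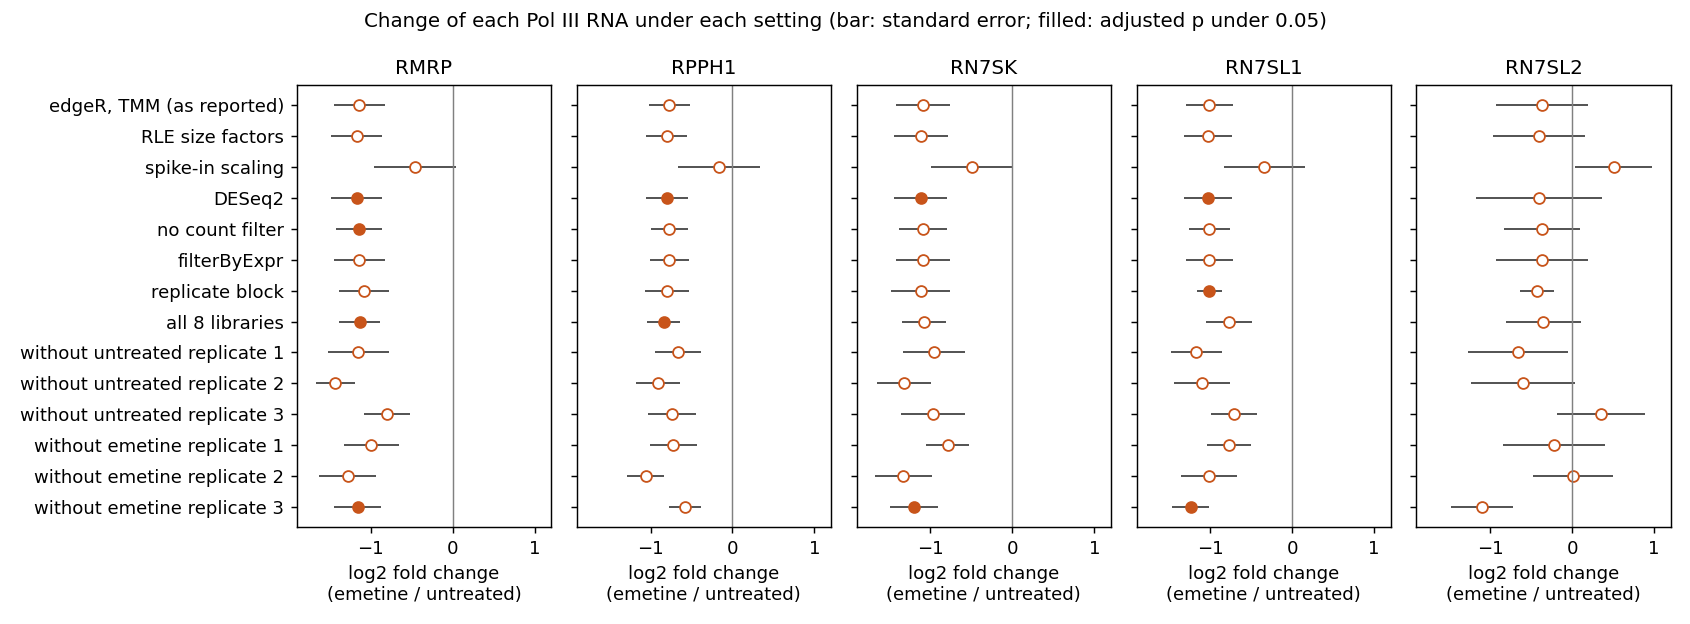
Log2 fold change of emetine-treated over untreated cells (horizontal axis) for each of the 5 Pol III RNAs under 14 settings (rows), with standard errors as bars and filled circles where the adjusted p was under 0.05. Filled circles appear for RMRP, RPPH1, RN7SK and RN7SL1 in some rows, 4 of them in the DESeq2 row, and for RN7SL2 in none.

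RN7SL2 differed from RN7SL1 in the T positions of its reads. RN7SL2 reads carried 20 T positions as the median, against 35 in RN7SL1, although both genes hold 55. Of all RN7SL2 reads, 65.3% carried 25 or fewer T positions, compared with 11.4% of RN7SL1 reads. The share in RN7SL2 ranged from 37.0% in untreated replicate 2 to 84.3% in the untreated library without s4U. That library stood at 26 CPM, whereas untreated replicate 3, with the highest level of 58.3 CPM, had a share of 62.8%.

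RN7SL2 reads with more than 25 T positions stood at 8.67, 13.4 and 21.7 CPM in untreated cells and at 4.37, 5.04 and 10.7 CPM in emetine-treated cells. Their means were 14.6 ± 6.59 and 6.70 ± 3.48 CPM (SD, n = 3 each), a ratio of 2.18 beside the 2.13 of such reads in RN7SL1. RN7SL2 reads with fewer T positions stood at 9.28, 7.88 and 36.6 CPM in untreated cells and at 15.2, 5.14 and 35.0 CPM in emetine-treated cells. Replicate 3 of both groups was high in these shorter-T reads, and it was also the highest of its group in reads with more than 25. The ratio of the means of the shorter-T reads was 0.97. In the pair without s4U, reads with more than 25 T positions were higher with emetine, at 6.51 against 4.07 CPM for RN7SL2 and 8.96 against 7.76 CPM for RN7SL1. The limit of 25 was set after the distribution was seen, and no test was made on the split.

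Each RN7SL1 read was matched by 1.45, 1.51 and 2.58 RN7SL2 reads in the 3 untreated libraries with s4U, and by 3.71, 1.23 and 4.19 in those with emetine. This ratio was 2.64 and 2.2 in the untreated and emetine libraries without s4U. The ratio thus moved between libraries more than between groups. In the other genes, untreated means with s4U were higher. For reads with more than 25 T positions they were higher by 2.74 times in RMRP, 2.12 times in RPPH1 and 2.43 times in RN7SK. For reads with fewer T positions they were higher by 1.81, 1.34 and 1.31 times. In the pair without s4U, the ratios were 1.89, 1.66 and 2.19 with more than 25 T positions. They were 2.25, 2.34 and 1.72 with fewer, so the order was reversed there in RMRP and RPPH1. The part of fragment length in the levels was not tested.

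**Figure D3:**
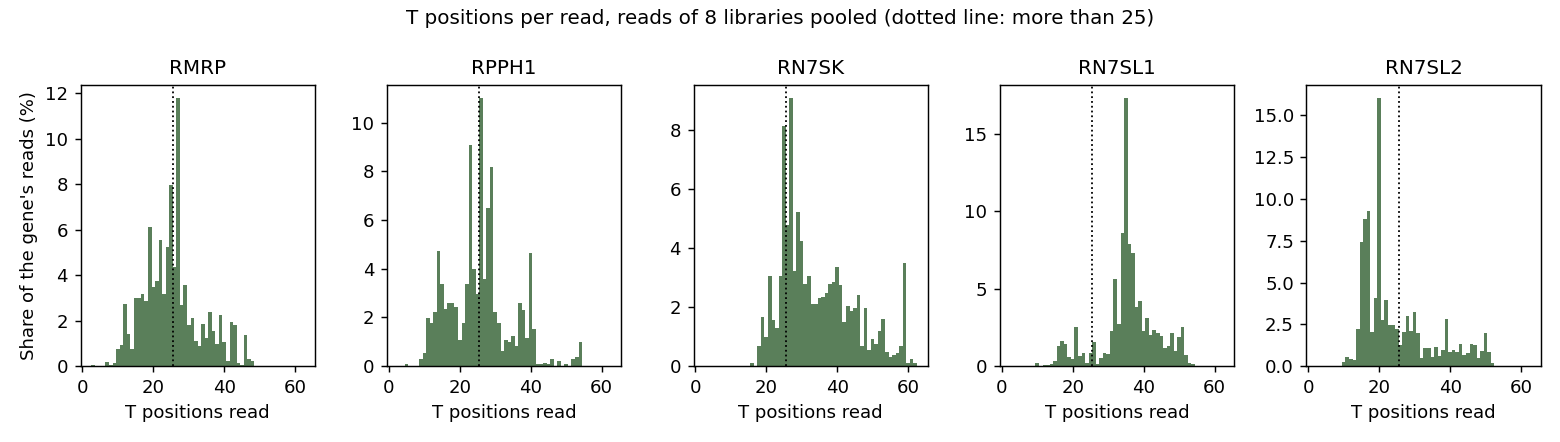
Share of the reads of each Pol III RNA (vertical axis, percent of the gene's reads in the 8 libraries pooled) by the number of T positions in the read (horizontal axis); the dotted line separates reads with more than 25. RN7SL1 peaks at 35 T positions and RN7SL2 at 20, although their RNAs differ at 4 bases.

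A second comparison asked whether s4U itself went with a different level. The mean levels with and without s4U were 6.83 and 8.34 CPM for RMRP, 5.33 and 6.49 CPM for RPPH1, 7.09 and 7 CPM for RN7SK, 12.3 and 9.76 CPM for RN7SL1, and 28.8 and 23.6 CPM for RN7SL2. Log2 differences (with over without s4U) ran from −0.30 with a standard error of 0.28 in RMRP to 0.27 with a standard error of 0.54 in RN7SL2. In edgeR 0 of 5 members and 0 of 14102 genes (0%) were called, and the members' adjusted p-values were 0.895 or higher. At an unadjusted p under 0.05 no member, 178 higher genes and 495 lower genes were found, and DESeq2 called 25 genes in both directions and no member. With 1 library without s4U per treatment, these differences have wide errors.

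With reads pooled over libraries, T-to-C conversions with s4U were above the background of the libraries without s4U in all 5 genes. In the 6 libraries with s4U, 1071 of 299771 T positions in reads of the 5 genes were converted, or 0.357% (95% exact Clopper-Pearson interval 0.336% to 0.379%). In the 2 libraries without s4U, 33 of 76470 T positions were converted, or 0.0432% (0.0297% to 0.0606%). Over all gene reads, the converted share was 0.802% to 1.06% with s4U and 0.0504% and 0.0521% without. The members' pooled background thus lay near that of all gene reads, and their share with s4U was lower than that over all gene reads. In RN7SL2 the background was lower, with an upper limit of 0.0460% that lay below the all-gene values. By gene, the converted share with and without s4U was 0.283% (0.227% to 0.348%) and 0.0515% (0.0167% to 0.120%) in RMRP, 0.203% (0.152% to 0.265%) and 0.0392% (0.00808% to 0.114%) in RPPH1, and 0.191% (0.152% to 0.237%) and 0.0333% (0.00907% to 0.0852%) in RN7SK. In the 7SL genes it was 0.5% (0.452% to 0.553%) and 0.0802% (0.0449% to 0.132%) for RN7SL1, and 0.379% (0.345% to 0.415%) and 0.0211% (0.00776% to 0.0460%) for RN7SL2. These pooled exact Clopper-Pearson intervals with and without s4U did not overlap in any of the 5 genes. They count each T position as independent, although the 1071 conversions with s4U fell in 479 reads, so the intervals are too narrow. Single libraries varied. RPPH1 had 0 of 2893 T positions converted in emetine replicate 1, 0.054% (0.00654% to 0.195%) in untreated replicate 3 and 0.68% (0.352% to 1.18%) in emetine replicate 3. RN7SK had 0.0395% (0.001% to 0.22%) in emetine replicate 1 and 0.587% (0.387% to 0.853%) in emetine replicate 3.

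Reads with 2 or more conversions made up 258 of 10297 member reads with s4U (2.51%) and 0 of 2975 without s4U, which allows a share of up to 0.101%. By gene, the share with s4U was 1.80% for RMRP, 1.14% for RPPH1, 1.37% for RN7SK, 4.33% for RN7SL1 and 2.44% for RN7SL2. Across all genes it was 6.32% to 8.66% per library with s4U and 0.0422% to 0.0448% without. These reads were few and partly alike: the 21 reads of RMRP shared 11 combinations of T positions and conversions, the 11 of RPPH1 shared 6 and the 17 of RN7SK shared 10. RN7SK showed this most in emetine replicate 3, where 9 of its 11 reads with emetine fell on 5 combinations.

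The fraction new, an estimate of the share of a gene's reads that came from RNA made during the hour, was computed from these conversions. It used the new-read rate fitted over all genes of each library, and whether the Pol III RNAs share that rate was not tested. Only RNA that passed the poly(A) selection is covered. In untreated cells it was 3.50% ± 2.47 in RMRP, 1.29% ± 1.2 in RPPH1, 0.960% ± 0.138 in RN7SK, 4.00% ± 2.14 in RN7SL1 and 4.09% ± 1.41 in RN7SL2 (SD, n = 3 each). The median over 10763 tested genes was 12.2%. In untreated cells 0.195% of those genes had a lower fraction new than RN7SK, 0.362% a lower one than RPPH1, 7.08% than RMRP, 10.1% than RN7SL1 and 10.5% than RN7SL2. All 5 RNAs therefore lay in the lower range of the tested genes, with RN7SK and RPPH1 near its floor. Among RMRP, RN7SL1 and RN7SL2 the values differed by less than their spread.

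In emetine-treated cells the fraction new of RN7SL1 was 7.67%, 6.44% and 6.29%, against 2.81%, 6.47% and 2.73% in untreated cells. Untreated replicate 2 lay within the emetine values, and the other untreated libraries below them. On the logit scale the difference was 0.64 with a standard error of 0.23 (limma, adjusted p = 0.0993, unadjusted p = 0.00761), and over the alternatives the adjusted p ranged from 0.0585 to 0.454. RN7SL2 stood at 2.87%, 5.63% and 3.78% in untreated and at 3.20%, 4.07% and 3.11% in emetine-treated cells, and RMRP at 1.28%, 6.16% and 3.04% against 5.05%, 1.32% and 0.976%. Both overlapped between the groups (limma, adjusted p = 0.854 for RN7SL2 and 0.806 for RMRP). Replicate 2 was the highest untreated library for RMRP, RPPH1, RN7SL1 and RN7SL2.

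RN7SK and RPPH1 had under 100 reads in 1 library each (85 in emetine replicate 1 and 75 in emetine replicate 3) and were not tested. RN7SK read 0.800%, 1.04% and 1.04% in untreated cells and 0%, 1.18% and 7.07% in emetine-treated cells, and RPPH1 1.51%, 2.36% and 0% against 0%, 1.59% and 4.60%. A limit of 50 reads let both in, with logit differences of 0.01 for RN7SK (standard error 1.00) and 0.25 for RPPH1 (standard error 1.26), each with an adjusted p of at least 0.960 in limma. Of the 3 members tested at 100 reads, 0 were called higher or lower, beside 0.214% higher and 4.83% lower among all genes.

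**Figure D4:**
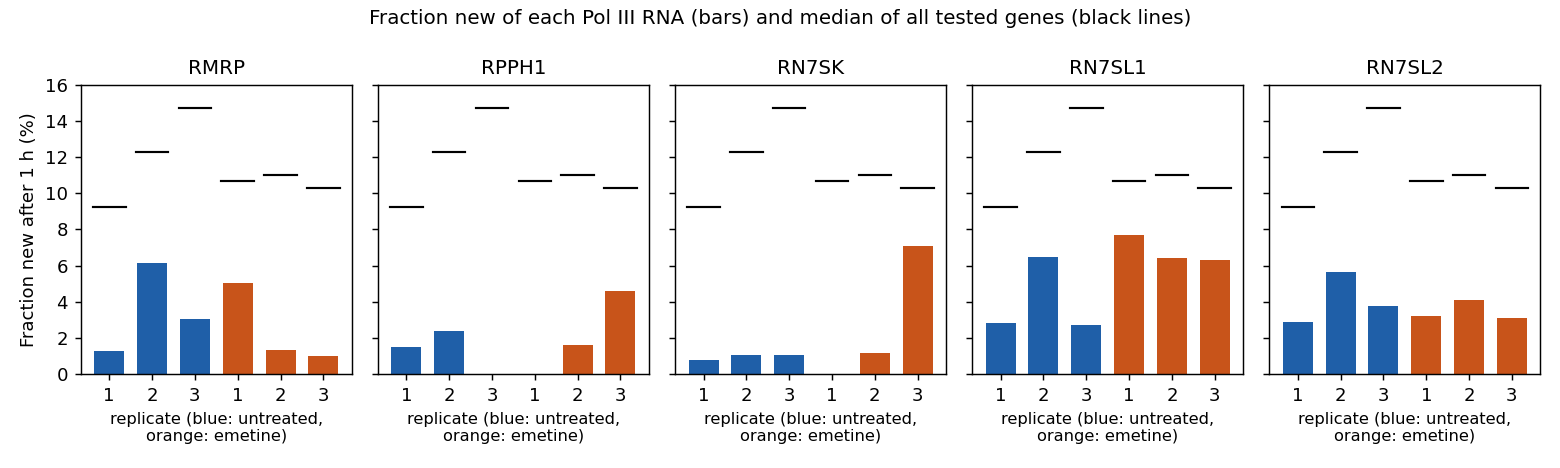
Fraction new after 1 h of s4U (vertical axis, percent) in each untreated (blue) and emetine (orange) library for the 5 Pol III RNAs, with the median of 10763 genes in the same library as a black line. Every bar lies under its line, and the highest bar is RN7SL1 in emetine replicate 1 at 7.67%.

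Reads were divided by the fraction new into labeled and unlabeled RNA, and no member passed the test in either class. Unlabeled RMRP stood at −0.98 on the log2 scale (standard error 0.30; limma, adjusted p = 0.0926) and unlabeled RN7SL1 at −1.01 (standard error 0.29; limma, adjusted p = 0.0727). Unlabeled RN7SL2 stood at −0.41 (standard error 0.55; limma, adjusted p = 0.636). Labeled reads had log2 fold changes of −0.40 (standard error 0.26) for RMRP, −0.09 (standard error 0.27) for RN7SL1 and −0.41 (standard error 0.28) for RN7SL2 (limma, adjusted p = 0.575, 0.940 and 0.593). The labeled value of RMRP rested on the 0.5 CPM added before the log: it was −0.99 with 0.1 CPM and −0.13 with 2 CPM added, where unlabeled RMRP stood at −1.05 and −0.80. In limma 0 of 3 tested members were called in either class, beside 0.632% of genes called lower for labeled and 0.0929% for unlabeled reads. At an unadjusted p under 0.05 (limma), RMRP and RN7SL1 were lower among unlabeled reads and no member among labeled reads. The share of all genes at that threshold is not given here, so these counts cannot be set beside it. Whether labeled and unlabeled reads differed in their change was tested for these genes through the fraction new only.

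The 2 h libraries, made from total RNA, gave a different order of the same RNAs. The authors' mean normalized count over the 2 h libraries, which pools treated and untreated cells and carries no error here, was 29805 for RN7SK, 7253 for RPPH1, 4369 for RN7SL1, 3682 for RN7SL2 and 536 for RMRP. Per kilobase of RNA this made RN7SK the highest of 9362 listed genes with a known length, at 90869 normalized counts per kb. RPPH1 ranked 6 with 21781, RN7SL1 ranked 14 with 14611, RN7SL2 ranked 20 with 12274 and RMRP ranked 237 with 2032 normalized counts per kb. Together the 5 RNAs made up 0.257% of the summed means.

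Among 9361 of those genes in the poly(A)-selected 1 h libraries, the same RNAs ranked lower, from 649 for RN7SL2 to 3065 for RPPH1, with RN7SL1 at 1279, RMRP at 1931 and RN7SK at 2280. Per kilobase, their untreated 1 h levels were 108 CPM (SD 74.6) for RN7SL2, 54.8 (SD 18.3) for RN7SL1, 35.7 (SD 15.3) for RMRP, 29.5 (SD 8.37) for RN7SK and 20.3 (SD 3.58) for RPPH1. The steps from RN7SL2 to RN7SL1 and from RMRP to RN7SK were smaller than the wider SD of the neighbours, and the other steps were little larger than it. Per kilobase RN7SL2 had 3.67 times the level of RN7SK at 1 h and 0.135 times at 2 h, and RMRP 1.21 times and 0.0224 times. Kit, s4U dose, time and the scaling of counts all differ between these values, and the 2 h mean also includes emetine-treated cells. These differences cannot be told apart.

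**Figure D5:**
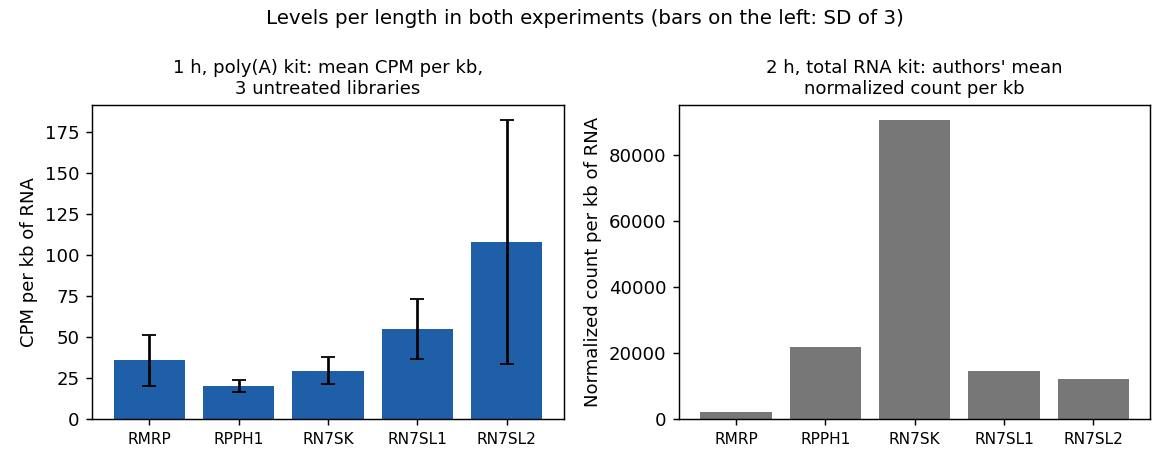
Levels per kilobase of RNA for the 5 Pol III RNAs, on the left as mean CPM of the 3 untreated 1 h libraries with SD, and on the right as the authors' mean normalized count of the 2 h libraries, which has no error; the axes are linear and in different units. RN7SL2 is the highest bar on the left at 108, and RN7SK on the right at 90869.

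Other Pol III transcripts were nearly missing at 1 h. Of the 11 listed, none passed the filter of more than 100 reads, and together they had 6 to 38 reads per library. BCYRN1, a neuronal Pol III RNA, had 22, 32 and 3 reads in untreated and 3, 5 and 0 reads in emetine libraries with s4U, but 2 reads untreated and 21 with emetine in the pair without s4U. The Y RNA RNY1 had 4, 1 and 2 against 5, 1 and 3 reads with s4U, and 0 against 7 without. None of these transcripts was among the 9982 genes of the 2 h tables used here, and tRNA genes were not analysed here.

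Small RNAs made by RNA polymerase II that also lack a tail, such as spliceosomal, nucleolar and Cajal body RNAs, were set beside the members. Whether the reads of these genes came from the untailed RNAs was not tested. Of the 163 listed, 5 were tested and 0 were called in edgeR and 0 in DESeq2. At an unadjusted p under 0.05 (edgeR) 1 was lower, beside 6.95% of all genes, and the median log2 fold change was −0.28. SNORD3A, the U3 RNA that guides processing of ribosomal RNA, had a mean of 5.15 ± 1.71 CPM in untreated and 2.49 ± 1.55 CPM in emetine-treated cells (SD, n = 3 each; edgeR, adjusted p = 0.209). SCARNA12 had 2.31 ± 1.15 and 1.68 ± 0.631 CPM (SD, n = 3 each; edgeR, adjusted p = 0.514). Summed over the list, levels were 13.4 to 20.4 CPM in untreated and 13.2 to 17.9 CPM in emetine libraries with s4U. These sums overlapped, as did those of the 5 members together, at 52.8 to 113 CPM and 34.2 to 69.3 CPM. In the pair without s4U, the list summed to 32.9 CPM untreated and 17.8 CPM with emetine, and the 5 members to 65.3 and 45.1 CPM, so both were lower with emetine there. The ribosomal RNA listed as RNA18S5 stood at 203 to 265 CPM in untreated and 196 to 328 CPM in emetine libraries with s4U, and at 521 and 80.3 CPM in the untreated and emetine libraries without s4U. The part of untailed RNA carried through the selection in the members' levels was not tested.

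Replication-dependent histone mRNAs, most of which end in a stem-loop in place of a tail although several of these genes can also make tailed transcripts, had positive changes more often than negative ones. Of 22 tested, 4 were raised and 0 lowered (edgeR), beside 2.65% raised among all genes, with a median log2 fold change of 0.51. HIST2H2BE rose from 3.72 ± 0.684 to 8.59 ± 1.09 CPM (adjusted p = 0.0151) and HIST1H2AC from 2.2 ± 0.321 to 4.95 ± 0.821 CPM (adjusted p = 0.0241; edgeR, SD, n = 3 each). HIST1H3D rose from 0.357 ± 0.170 to 1.60 ± 0.352 CPM (adjusted p = 0.0243), and HIST1H2BD from 3.8 ± 0.370 to 6.48 ± 0.800 CPM (adjusted p = 0.0473). In the same libraries, RMRP, RPPH1, RN7SK and RN7SL1 had lower means with emetine but did not pass the reported edgeR test. Whether the histone reads came from tailed transcripts was not tested.

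Of the mRNAs for proteins that bind these RNAs, edgeR called none lower. DESeq2 called 1 lower, an mRNA of the RNase P and MRP list, beside 1.13% of all genes. Of 8 mRNAs for signal recognition particle and receptor proteins, the partners of 7SL, 0 were called in edgeR and 0 in DESeq2. At an unadjusted p under 0.05 (edgeR) 2 were lower, beside 6.95% of all genes, and the median log2 fold change was −0.15. The 2 with the most reads were SRP9, at 387 ± 10.5 and 339 ± 44.8 CPM, and SRP14, at 248 ± 14.6 and 196 ± 40.0 CPM (untreated and emetine-treated, SD, n = 3 each; edgeR, adjusted p = 0.324 and 0.224). Of 11 mRNAs for protein subunits of RNase P and MRP, RPP14 was raised, from 43.9 ± 3.79 to 63.6 ± 4.12 CPM (edgeR, adjusted p = 0.0302), and the median was −0.13. RPP38, another of these subunits, had a lower fraction new, at 34.8% ± 0.630 against 63.6% ± 7.82 in untreated cells (limma, adjusted p = 0.00042).

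Of 7 mRNAs for proteins of the 7SK complex and P-TEFb, 2 were raised and 0 lowered (edgeR), beside 2.65% raised among all genes, with a median of 0.08. The raised genes code for the cyclins of P-TEFb: CCNT2 went from 29.4 ± 1.67 to 51.1 ± 13.3 CPM (adjusted p = 0.0447) and CCNT1 from 45.6 ± 1.78 to 74.8 ± 18.2 CPM (adjusted p = 0.0497; edgeR, SD, n = 3 each). The fraction new fell in 4 of the 7, beside 4.83% of all genes, which were CCNT1, CCNT2, the 7SK binder HEXIM2 and the 7SK capping enzyme MEPCE. HEXIM2 fell from 43.5% ± 12.5 to 21.9% ± 3.77 (limma, adjusted p = 0.00334) and MEPCE from 42.3% ± 7.69 to 25.1% ± 0.172 (limma, adjusted p = 0.0204), while their levels did not pass the test (edgeR, adjusted p = 0.796 and 0.706).

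Among mRNAs for the Pol III machinery, 0 of 13 subunit genes were called for level (edgeR), and the median was 0.01. At an unadjusted p under 0.05 (edgeR) 3 were higher, and the share of all genes at that threshold is not given here. DESeq2 called 1 raised, beside 820 of 13776 genes. POLR3K, among those with the most reads, stood at 133 ± 0.924 CPM in untreated and at 110 ± 24 CPM in emetine-treated cells (SD, n = 3 each; edgeR, adjusted p = 0.303). Of 20 Pol III transcription factor and regulator genes, 2 were raised and 0 lowered (edgeR), beside 2.65% raised among all genes, with a median of 0.13. BRF2, the factor that recruits Pol III to upstream promoters such as those of RMRP, RPPH1 and RN7SK, rose from 18.4 ± 1.15 to 38.3 ± 3.67 CPM (edgeR, adjusted p = 0.00511). Its fraction new fell from 67.6% ± 8.71 to 35.1% ± 1.44 (limma, adjusted p = 6.6e-05). SNAPC4, a subunit of the complex that binds the same promoters, rose from 59.1 ± 2.48 to 94.4 ± 11.3 CPM (edgeR, adjusted p = 0.0156), while its fraction new of 20.1% ± 5.48 and 13.1% ± 0.355 did not pass the test (limma, adjusted p = 0.196).

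The members' patterns over the 8 libraries were also compared as a description, with libraries, depth and fragment length shared by all points. Pearson's r of each member with the mean of the other 4, on log2 CPM over 8 libraries, was 0.91 for RMRP, 0.86 for RN7SK, 0.82 for RN7SL1, 0.58 for RPPH1 and 0.35 for RN7SL2. By pair, r ran from −0.07 between RPPH1 and RN7SL2 to 0.92 between RMRP and RN7SK. Among 10709 other genes with at least 100 reads in every library, the 5 most like the members' mean were INA, ZDHHC18, DMTN, SLC30A3 and SNX27, with r of 0.955, 0.938, 0.936, 0.928 and 0.901 over 8 libraries. Their own changes were smaller than those of RMRP, RPPH1, RN7SK and RN7SL1, with log2 fold changes of −0.19, −0.14, −0.53, −0.33 and −0.12, and none passed the test (edgeR, adjusted p from 0.116 to 0.423).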

How the data were processed

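TL-seq libraries of HEK-293T cells were put into groups by their labels (treatment, hours, s4U, replicate). For the 1 h experiment the authors trimmed adapters with cutadapt, used hisat-3n to map reads to hg38, and tallied the T positions of each read and their conversions with bam2bakR, and the deposited table gives raw, whole read counts. For the 2 h experiment the deposited signal, the mean of spike-in-normalized counts over the 2 h libraries, was used as the authors' value, and it was the same in both dose tables for all 9982 genes. The other columns hold the authors' log2 fold changes, standard errors and p-values, which were not used, and neither was their table of spike-in size factors. How reads shared between near-identical genes were counted is not given in the sources used here.

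Read counts were summed per gene. Levels of 3 untreated and 3 emetine libraries with s4U were compared by the quasi-likelihood test of edgeR 4.0.16 (R 4.3.3) with TMM factors, over the 13776 genes whose counts summed to more than 100. The s4U effect was fitted over 8 libraries with a term for emetine. The fraction new was the maximum likelihood weight of a 2-component binomial mixture, with the background rate from the library without s4U of the same treatment. Its logit, after limits of 0.001 and 0.999, entered limma 3.58.1 (trend, robust), where 10763 genes reached 100 reads in all 6 libraries. Labeled and unlabeled CPM were compared with limma after adding 0.5 CPM and log2. All p-values are two-sided and adjusted over all genes tested by Benjamini-Hochberg, at a threshold of 0.05. The fits were tested on simulated data. Alternatives were RLE and spike-in scaling, DESeq2 1.42.0, other filters, rates, centring, a replicate block, and leaving out each library. DESeq2 gave each of the 5 genes an adjusted p.

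Over all tested genes, the deviations of same-numbered libraries from their group means correlated with r of 0.0835, 0.0186 and −0.118. T positions per gene read were 37.74, 43.83 and 35.31 in untreated and 33.15, 40.2 and 33.29 in emetine replicates 1 to 3. Replicate 2 was thus the highest in both groups, and whether the numbers pair the libraries is not settled. Each emetine value also lay below the untreated value of the same number, although the groups overlapped. In the pair without s4U, the values were 32.01 untreated and 33.46 with emetine. Members, lists and tests were chosen with earlier results of these data known. Of each list, up to 4 genes past a threshold are named (smallest p, level before fraction new), or the 2 with the most reads where none passed; 1 such gene is not reported here. Genes were matched by symbol to GENCODE 44 (17147 of 19222 genes). The reference promoter windows held none of the 5 genes, whose sequences were read from the hg38 genome. The identity of the cell line was not checked against markers.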

Additional observations from a re-analysis of the deposited data

How the results depend on the processing

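Of 219 values of single genes under alternatives, 185 kept their direction and their side of the threshold, 14 passed it, and 20 changed sign, none of which was a called value. The number of members called for level, 0 in the reported fit, was 4 in DESeq2, 1 without a count filter (RMRP, adjusted p = 0.0441) and 2 in the fit of all 8 libraries. Leaving out a library gave between 0 and 3 members called for level, the 3 without emetine replicate 3, and 0 to 1 for unlabeled reads, where RMRP passed without untreated replicate 2 (−1.33, adjusted p = 0.0336) and RN7SL1 without emetine replicate 3 (−1.24, adjusted p = 0.0199; edgeR for level, limma for unlabeled reads). The CPM added before the log moved labeled RMRP from −0.40 to −0.99 (0.1 CPM) and −0.13 (2 CPM). Over all genes, 6 were lowered in the reported fit, 156 in DESeq2, 30 in the fit of 8 libraries and 0 to 525 when 1 library was left out, 525 without emetine replicate 3. Raised genes numbered 365 in the reported fit, 820 in DESeq2, 60 with spike-in scaling, 646 with 8 libraries and 4 to 1367 when 1 library was left out. The cause of these shifts was not tested.

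With the replicate number as a block, 1 member was called for level (RN7SL1, −1.01, adjusted p = 0.0487) and 1 for unlabeled reads (RN7SL1, adjusted p = 0.0324), and 75 genes were raised and 3 lowered. The blocked s4U differences changed sign to −0.20 for RN7SK, −0.29 for RN7SL1 and −0.30 for RN7SL2. The block changed no other call of a member. It lowered the standard error for level from 0.29 to 0.15 in RN7SL1 and from 0.56 to 0.21 in RN7SL2. In RMRP, RPPH1 and RN7SK the standard errors were 0.30, 0.27 and 0.36 with the block and 0.31, 0.25 and 0.33 without it. The labels give the same number to these libraries and do not say whether they belong together.

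RN7SL2 changed sign for level to 0.51 with spike-in scaling and ranged from −1.10 to 0.35 when a library was left out, with positive values without untreated replicate 3 or emetine replicate 2. The s4U difference of RN7SK was −0.01 with spike-in scaling and ranged from −0.09 to 0.14 when a library was left out, that of RN7SL1 from −0.25 to 0.73 and that of RN7SL2 from −0.10 to 0.46. When a library was left out, RN7SL2 ranged from −0.31 to 0.04 in fraction new and from −0.96 to 0.11 in unlabeled reads, and RN7SL1 from −0.28 to 0.09 in labeled reads. The converted share of the members' T positions ranged from 0.248% to 0.364% in untreated libraries when a library was left out, lowest without untreated replicate 2. Leaving out a library with no s4U left 1 such library, which was assumed to vary like the others. At 500 reads per library no member could be tested for fraction new. Summing RN7SL1 and RN7SL2, the split at 25 T positions and leaving out libraries for the converted share were chosen after seeing the data. Members had 75 to 1236 reads per library, which limits the detectable differences.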
